A study of Mus musculus with 4 samples.

Results

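The genes described here are 39 that act on proteins entering or folding in the endoplasmic reticulum: chaperones, disulphide isomerases, stress sensors, genes of ER-associated degradation and genes of the translocon. The rule names symbols and uses no measured value, but the list was drawn up with earlier results of these data known. All probe sets annotated to a member symbol and to no other symbol were taken. Of the 39, 38 had a probe set of their own, out of 18193 genes on the array, and these 38 were read by 101 probe sets. Sec61g was read only by a probe set shared with other symbols and was not counted. A probe set that Sec61b shares with another symbol was also left out. For each gene the probe set with the highest mean log2 signal over the arrays was taken, and the gene entered the counts if that mean reached 3.14, the median over the non-control probe sets. This left 32 of the 38 members, and 12585 of all genes. Hspa13, Creld2, Canx, P4hb, Herpud1 and Derl2 lay below the filter.

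The RNA was total RNA of MC/9, a mouse mast cell line, and the arrays were Affymetrix Mouse Genome 430 2.0, which read a transcript with sets of short probes near its 3' end. The labels give the line a (B6 X A/J)F1 background, liver as its tissue and an age of 13 days. The 4 groups were control (untreated), BER (10 microM of the plant alkaloid berberine), DNP (500 microg/ml of anti-DNP IgE, an antibody to a hapten) and BER+DNP (the agents combined). Treated cells had 24 h with the agents and a further 6 h in culture by the labels, which name no antigen step and no time for the control. All cells were grown in medium with serum, 2-mercaptoethanol and Rat T-STIM, a supplement the control shares. With 1 array per group, no value carries a replicate error and no difference below has been set against replicate spread. No test was run: a model with additive effects of the agents would leave 1 residual degree of freedom, which holds their interaction and no replicate.

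Proteins bound for secretion or for membranes enter the endoplasmic reticulum through the Sec61 channel, where their signal sequence is cut off and their chains are bound by chaperones. Chains that fail to fold are passed back to the cytosol and destroyed, a route called ER-associated degradation. When unfolded chains build up, the sensors IRE1, ATF6 and PERK start the unfolded protein response, in which the transcription factors XBP1 and ATF6 act on promoters of chaperone genes. Mast cells make granule proteases and cytokines through this route.

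The arrays resembled each other, with Pearson correlations between 0.988 and 0.991 across 45037 probe sets, and their median log2 signals lay between 3.13 and 3.15. Of 12 mast cell markers, 6 reached the filter with their mean signal: the transcription factor gene Gata2 (5.87), the histidine decarboxylase gene Hdc (5.50), the protease genes Tpsb2 (4.08), Mcpt4 (3.85) and Cma1 (3.31), and the IgE receptor gene Fcer1g (3.56). Below it were Kit, the other IgE receptor genes Fcer1a and Ms4a2, and Cpa3, Tpsab1 and Mitf. The filter was reached by 4 of 6 leukocyte markers, 5 of 6 epithelial markers, 4 of 6 fibroblast markers and 4 of 5 plasma cell markers. Of all 18193 genes, 12585 reached it, so these counts do not tell cell types apart. Among the epithelial markers the mean signals were 9.60 for Krt17, 8.61 for Krt14, 7.33 for Krt8, 5.14 for Epcam and 3.91 for Krt18. Cdh1 was below the filter. Krt17, Krt14 and Krt8 thus read above all 12 mast cell markers. Of the leukocyte markers, Laptm5 read 6.69, also above them, and Ptprc 2.29, below the filter. With Kit (2.78), Fcer1a (2.43) and Ms4a2 (2.67) below the filter, the mast cell label is only partly borne out by its defining markers. The brightest epithelial markers read higher than any of the mast cell markers, and the identity of the cells was not tested. Control probe sets for beta-actin differed between arrays, and their values stand beside the translocon genes below. Because RNA of whole cultures was measured, a change in the share of cells of one kind and a change in RNA per cell cannot be told apart.

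With berberine alone, 3 of the 32 members read at least 1.5-fold lower than control: Manf, Sec61a1 and Ssr2. No member read 1.5-fold higher. Over all genes, 0.985% were 1.5-fold lower and 1.01% higher. With berberine on top of the antibody (BER+DNP against DNP), 0 members passed 1.5-fold in either direction, against 0.509% higher and 0.699% lower of all genes. Small differences leaned one way: 20 members read below control in BER and 12 above it, against 49.9% and 48.9% of all genes, and 26 read below DNP in BER+DNP, against 53.2%. Past 1.5-fold in both pairs were 0 members, against 0.0795% of all genes higher and 0.159% lower. The pairs share no array, and 17 of the 32 members (53.1%) read lower with berberine in both, where 29.7% of all genes did. Higher in both were 3 members (9.38%), Hyou1, Syvn1 and Ssr4, where 25.4% of all genes were. The median member difference was -0.10 without and -0.17 with anti-DNP IgE, and that of all genes was 0.00 and -0.02. Restricting the count to genes at or above the 75th percentile of signal gave 14 of 26 members lower in both pairs, against 32.7% of such genes.

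**Figure D1:**
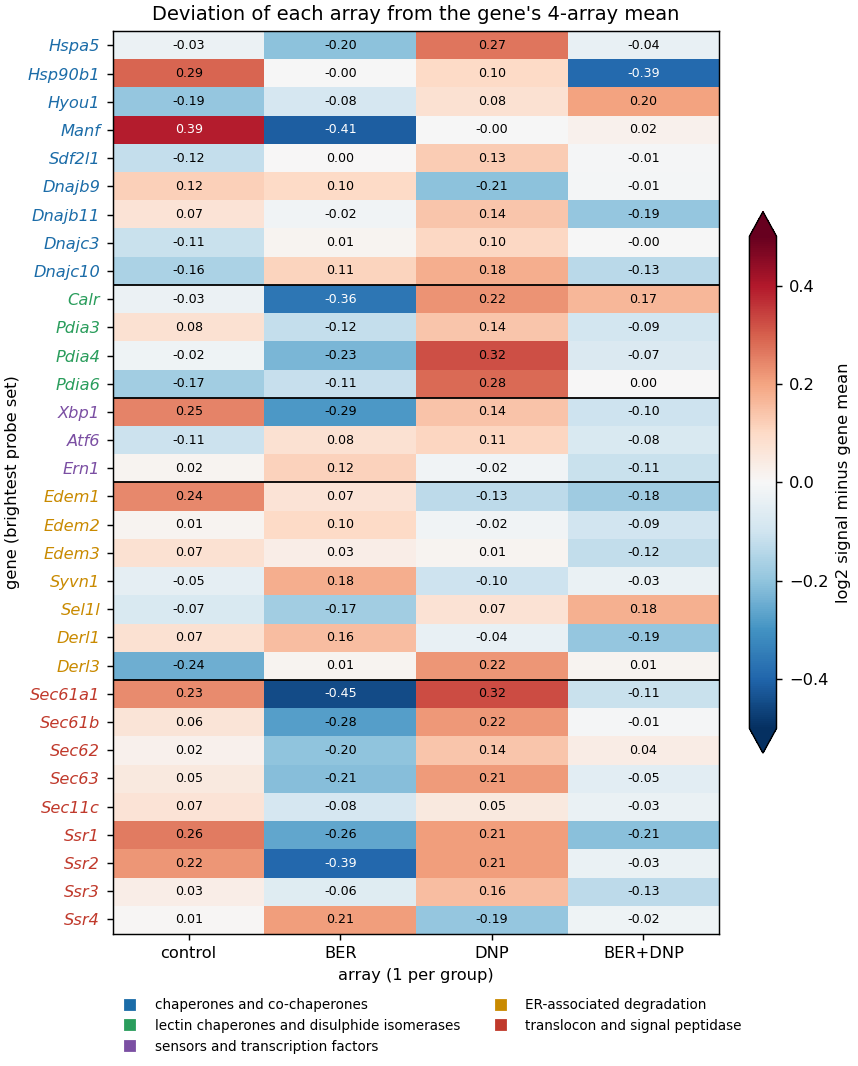
Each row is 1 of the 32 member genes past the filter, each column 1 array, and each cell the log2 signal on that array minus the gene's mean over the 4 arrays. In the lowest block, the translocon genes, 7 of 9 rows have their lowest cell in the BER column, against 26.9% of all genes. With the median of all probe sets that count was 3 of 8. In the block of lectin chaperones and disulphide isomerases all 4 have their highest in DNP, against 29.5% of all genes. There the count was 2 of 4 with quantile normalization and 2 of 4 with the median of all probe sets.

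The DNP array held the highest signals of many members. Of the 32 members, 16 had their highest signal on the DNP array (29.5% of all genes) and 14 had their lowest on the BER array (26.9%), on which 5 were highest (25.2%). Only 3 members were lowest on DNP, against 22.6% of all genes, and 2 were highest on BER+DNP, against 20.8%. The control array was the highest for 9 members and the lowest for 7, against 24.6% and 27.0% of all genes. DNP is the array that BER+DNP was set against, so a high DNP signal enters both DNP against control and BER+DNP against DNP. In DNP against control 18 members were above 0 (53.3% of all genes), with a median of 0.08 against 0.02 for all genes. In BER+DNP against BER, which shares no array with that pair, 16 were above 0 (48.8% of all genes) and the median was 0.01. At 1.5-fold, 0 members passed in DNP against control (0.803% of all genes higher, 0.628% lower) and 0 in BER+DNP against BER (0.556% higher, 0.358% lower). In both of these pairs together 0 passed, against 0.0159% of all genes higher and 0.0159% lower. Marker lists of cell types also differed between these arrays. The summed linear signal of the 12 mast cell markers was 181 in control and 180.1 in BER, and 207 in DNP and 208 in BER+DNP, and that of the 6 epithelial markers 1311, 1337, 1465 and 1425. The 6 leukocyte markers summed to 183, 182, 167 and 154 in the same order, the 6 fibroblast markers to between 68.4 and 74.2 and the 5 plasma cell markers to between 175 and 189.9. Such sums weigh the brightest markers most. In DNP against control, 5 of the 6 mast cell markers past the filter were above 0, and Hdc (-0.10) was below. Of the epithelial markers past it 3 were above 0 and 2 below, and of the leukocyte ones 1 above and 3 below. The part of these marker differences in the member differences was not tested.

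**Figure D2:**
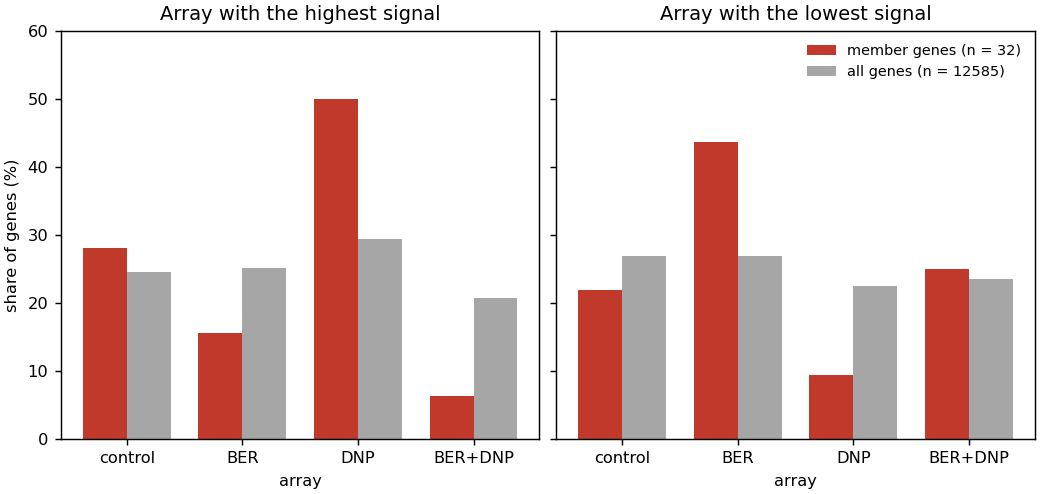
Bars give the percentage of genes whose highest (left) or lowest (right) log2 signal of the 4 fell on each array, for the 32 member genes and for all 12585 genes. Among members 50.0% were highest on DNP and 43.8% lowest on BER, against 29.5% and 26.9% of all genes.

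Promoter sequence is shown because chaperone genes of the compartment are known for a shared promoter element through which the unfolded protein response acts. RefSeq promoter windows of mouse build GRCm38.p6, running from 250 bases before a start site to 50 after it, were at hand for 31 of the 39 members. The ER stress element (ERSE), searched on both strands as CCAAT and CCACG with 9 bases between them, was found in 9 of the 31 (29.0%) and in 0.119% of all 32851 windows. Here and below, members were counted by gene and the background by window, with the windows of the members included. Its CCAAT part is bound by the general factor NF-Y and its CCACG part by ATF6 and XBP1. The related ERSE-II, ATTGG and CCACG with 1 base between them, was found in 2 of the 31, Herpud1 and Dnajb11, and in 0.0365% of all windows. The Dnajb11 match begins after the start site. The letters CCAAT alone, which the ERSE contains, were in 23 of the 31 and in 37.4% of all windows. Neither TGACGTGG, the XBP1-type UPRE, nor TGATGNAAT, an ATF4-type element, was found in any of the 31; they were in 0.676% and 0.965% of all windows. Manf, Sec61a1 and Ssr2 are not among the 31. The 250 bases upstream of 3 chaperone genes follow, with ERSE and CCAAT letters of either strand in capitals: Hspa5 on the plus strand at chr2:34771840-34772089, Hsp90b1 on the minus strand at chr10:86705445-86705694, Sdf2l1 on the minus strand at chr16:17132384-17132633.
Hspa5: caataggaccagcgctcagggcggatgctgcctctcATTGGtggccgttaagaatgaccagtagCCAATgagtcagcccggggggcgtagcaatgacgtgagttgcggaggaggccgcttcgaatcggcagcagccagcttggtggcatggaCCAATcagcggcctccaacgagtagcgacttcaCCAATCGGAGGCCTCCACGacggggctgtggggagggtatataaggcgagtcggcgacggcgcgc
Hsp90b1: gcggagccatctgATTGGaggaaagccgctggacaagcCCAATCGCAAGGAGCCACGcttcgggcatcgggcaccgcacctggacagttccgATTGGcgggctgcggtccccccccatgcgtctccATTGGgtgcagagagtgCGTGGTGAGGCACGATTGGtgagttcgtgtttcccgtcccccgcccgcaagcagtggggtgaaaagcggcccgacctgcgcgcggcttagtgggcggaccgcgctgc
Sdf2l1: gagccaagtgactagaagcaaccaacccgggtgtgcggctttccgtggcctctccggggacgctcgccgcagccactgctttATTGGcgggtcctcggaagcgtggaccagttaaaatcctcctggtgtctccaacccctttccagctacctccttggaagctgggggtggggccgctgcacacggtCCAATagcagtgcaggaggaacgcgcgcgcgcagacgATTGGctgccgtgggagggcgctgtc

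The 10 ERSE copies of the 9 genes are compared next, each with 12 bases on either side, the element in capitals and the sequence on the strand of its gene. They lie in Hspa5 at chr2:34772013-34772055 (plus), Calr at chr8:84847063-84847105 (minus), Derl3 at chr10:75893230-75893272 (plus), Hsp90b1 distal at chr10:86705626-86705668 (minus), Hsp90b1 proximal at chr10:86705521-86705563 (minus), Canx at chr11:50325788-50325830 (minus), Pdia6 at chr12:17266479-17266521 (plus), Dnajc3 at chr14:118937815-118937857 (plus), Creld2 at chr15:88819508-88819550 (plus), Syvn1 at chr19:6046520-6046562 (plus).
Hspa5: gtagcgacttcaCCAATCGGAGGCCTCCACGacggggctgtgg
Calr: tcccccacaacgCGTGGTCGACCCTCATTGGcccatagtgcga
Derl3: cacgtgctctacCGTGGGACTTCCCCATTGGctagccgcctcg
Hsp90b1 distal: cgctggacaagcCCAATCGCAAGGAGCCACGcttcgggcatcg
Hsp90b1 proximal: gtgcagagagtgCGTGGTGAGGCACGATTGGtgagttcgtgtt
Canx: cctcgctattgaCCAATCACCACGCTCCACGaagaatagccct
Pdia6: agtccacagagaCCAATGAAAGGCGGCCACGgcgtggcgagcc
Dnajc3: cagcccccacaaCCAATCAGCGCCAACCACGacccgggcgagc
Creld2: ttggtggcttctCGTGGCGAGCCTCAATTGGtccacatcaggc
Syvn1: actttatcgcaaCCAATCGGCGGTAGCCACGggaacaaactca
Where the capitals begin with CGTGG, as in Calr, Derl3, Creld2 and the proximal Hsp90b1 copy, the element lies on the other strand. The first letter of the element lay between 44 bases (Syvn1) and 212 bases (the distal Hsp90b1 copy) upstream of the start site. A match is a description of these letters and does not show that a factor was bound in these cells.

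Chaperones and co-chaperones, 9 of 11 of them past the filter, had no common direction with berberine: the medians were -0.02 without and -0.13 with anti-DNP IgE. Hspa5 encodes BiP, the Hsp70 of the compartment. Its brightest probe set read 8.73 in control and 8.55 in BER, and 9.03 in DNP and 8.72 in BER+DNP, all log2 signals. DNP was the highest and BER the lowest, and berberine gave -0.18 and -0.31 in the pairs without and with anti-DNP IgE. With quantile normalization these were -0.056 and -0.21. A second Hspa5 probe set gave -0.32 and -0.49, and the third -0.04 and 0.02. Hsp90b1 encodes GRP94, the Hsp90 of the compartment, and read 5.99, 5.70, 5.80 and 5.32 in the order control, BER, DNP and BER+DNP. It was the lowest on the array with both agents, with berberine differences of -0.29 and -0.49. A dimmer Hsp90b1 probe set, below the filter, gave -0.25 and -0.22.

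Manf, a secreted protein that binds BiP, had the largest difference of any member. Its only probe set, 1428112_at, read 6.25 in control and 5.45 in BER, and 5.86 in DNP and 5.88 in BER+DNP. It was 1.75-fold lower in BER than in control, and DNP and BER+DNP lay between those arrays and 0.02 apart from each other. The berberine difference was thus -0.80 without and 0.02 with anti-DNP IgE, a gap past 1.5-fold that 4.27% of all genes had in either direction. Hyou1, an Hsp110 that exchanges nucleotide on BiP, read 7.27, 7.38, 7.55 and 7.67, highest with both agents. Its berberine differences, 0.11 and 0.12, went the other way from those of the brightest Hspa5 probe set. For anti-DNP IgE both genes read higher in both pairs, Hyou1 by 0.27 and 0.28 and Hspa5 by 0.30 and 0.17. A second probe set of Hyou1 gave 0.11 and 0.03 for berberine and 0.20 and 0.12 for anti-DNP IgE. The third gave -0.28 and 0.00 for berberine and -0.26 and 0.02 for anti-DNP IgE.

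The J-domain partners of BiP differed from one another. Dnajb11, which feeds unfolded chains to BiP, gave -0.09 and -0.33 for berberine. Dnajb9, a J protein that holds IRE1 inactive, gave -0.02 and 0.20 and was the only one of the 9 chaperones past the filter that was lowest on DNP. Dnajc3, which encodes p58IPK, gave 0.12 and -0.11 on a probe set close to the filter. Dnajc10, a J protein with disulphide reductase activity, read 4.38, 4.65, 4.72 and 4.41, so berberine gave 0.27 without and -0.32 with anti-DNP IgE. That gap between the pairs was just under 1.5-fold. Sdf2l1, a BiP cofactor, stayed between 5.95 and 6.19 on all arrays. Hspa13 and Creld2, below the filter, gave -0.09 and 0.20, and 0.27 and 0.39, for berberine.

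Lectin chaperones and disulphide isomerases past the filter had their highest signal on DNP in 4 of 4 genes as deposited. Of all genes 29.5% were highest there. The count was 2 of 4 with quantile normalization and 2 of 4 with the median of all probe sets. Calreticulin, calnexin and ERp57 handle glycoproteins, and the isomerases form and shuffle disulphide bonds. All 4 read higher with anti-DNP IgE in both of its pairs, where 29.4% of all genes did. Their medians were 0.30 without and 0.14 with berberine. Higher in both pairs were 3 of 4 with quantile normalization and 3 of 4 with the median of all probe sets. Pdia4 read 6.69 in control and 6.48 in BER, and 7.03 in DNP and 6.64 in BER+DNP. Pdia6 read 7.19, 7.25, 7.65 and 7.37 in that order, and its anti-DNP IgE difference without berberine, 0.46, was the largest of the 4. Calr, the calreticulin gene, read 8.47, 8.14, 8.73 and 8.67: low in BER, and high on both anti-DNP IgE arrays. Pdia3, which encodes ERp57, read 10.30, 10.11, 10.36 and 10.13 and so split by berberine rather than by antibody. Its anti-DNP IgE differences, 0.06 and 0.03, became -0.0051 and -0.027 with quantile normalization. In the berberine pairs 3 of the 4 were lower in both, Calr (-0.33 and -0.06), Pdia3 (-0.20 and -0.23) and Pdia4 (-0.21 and -0.40), and Pdia6 gave 0.06 and -0.28. With quantile normalization 2 of the 4 were lower in both: Calr gave -0.19 and 0.064, Pdia3 -0.071 and -0.093, and Pdia4 -0.15 and -0.32. Dimmer probe sets did not always follow. Those of Pdia4 and Pdia6 gave 0.11 and 0.01, and 0.28 and 0.37, for berberine, and a Pdia3 probe set gave -0.64 and 0.14. For anti-DNP IgE that Pdia3 probe set gave -0.41 and 0.37, a Calr one -0.05 and -0.02, and the Pdia4 one 0.06 and -0.04. Canx and P4hb, below the filter, gave 0.11 and -0.30, and -0.34 and 0.14. A control probe set for the 3' end of 18S rRNA also read high with the antibody: 11.40 in control and 11.35 in BER, and 12.56 in DNP and 12.43 in BER+DNP, a difference of 1.16 without and 1.08 with berberine. The 5' one gave -0.22 and 0.49 and the middle one -0.28 and 0.23. The part of RNA quality or preparation in the anti-DNP IgE differences was not tested.

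Of the sensors and transcription factors, Xbp1 stood apart. Its transcript is spliced by IRE1 into the active form, which a summed probe set signal does not tell from the unspliced form. The brightest Xbp1 probe set read 5.38 in control and 4.85 in BER, and 5.28 in DNP and 5.03 in BER+DNP, so both arrays with berberine lay below both without it, by -0.53 and -0.25. The other 3 Xbp1 probe sets were below the filter, and 2 of them went the other way, with 0.42 and 0.40, and 0.10 and 0.48. Atf6, the sensor that is cut in the Golgi to free a transcription factor, gave 0.18 and -0.19, and Ern1, which encodes IRE1 alpha, 0.10 and -0.09. Further Ern1 probe sets past the filter gave 0.16 and 0.07, and -0.07 and -0.34.

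ER-associated degradation genes showed little with berberine, with medians of 0.08 and -0.08 over the 7 of 9 past the filter. Edem1, Edem2 and Edem3, which mark misfolded glycoproteins by trimming their mannose, gave -0.17 and -0.05, 0.09 and -0.08, and -0.04 and -0.14. Syvn1, which encodes the ubiquitin ligase HRD1, read 5.81, 6.04, 5.76 and 5.83, highest in BER, and Sel1l, its adaptor, read 4.50, 4.40, 4.64 and 4.75, highest with both agents. In the anti-DNP IgE pairs 5 of the 7 were lower in both, where 26.0% of all genes were: Edem1, Edem2, Edem3, Syvn1 and Derl1. Without berberine, Edem1 gave -0.37 for anti-DNP IgE, but Edem2 only -0.03, Edem3 -0.06 and Syvn1 -0.06. Second probe sets past the filter changed sign between these pairs, with -0.17 and 0.15 for Edem2 and -0.08 and 0.09 for Derl1. For berberine the same probe sets gave -0.25 and 0.07 for Edem2 and -0.31 and -0.13 for Derl1. The brightest Derl1 probe set gave 0.08 and -0.16 for berberine. Derl1 and Derl3 encode derlins, membrane proteins of the export channel. Derl1 gave -0.11 and -0.35 for anti-DNP IgE. Derl3 read 4.69, 4.94, 5.15 and 4.94, lowest in control, with 0.46 for anti-DNP IgE alone and 0.00 on top of berberine. Herpud1, which recruits the ligase, and Derl2 were below the filter and gave -0.06 and 0.17, and -0.21 and 0.08, for berberine.

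With the brightest probe set per gene, translocon and signal peptidase genes had the largest share of any subgroup below 0 in both berberine pairs. With the median of all probe sets this ranking was lost: 6 of 8 translocon genes, 3 of 4 lectin chaperone and isomerase genes and 1 of 1 sensors were below 0 in both. In BER+DNP against DNP alone, all 4 lectin chaperone and isomerase genes and all 3 sensors were below 0 too. Of 9 translocon genes past the filter, 8 read lower with berberine in both pairs, where 29.7% of all genes did, and their medians were -0.26 and -0.24. Sec61a1, the channel-forming subunit, read 5.50 in control and 4.82 in BER, and 5.59 in DNP and 5.15 in BER+DNP on probe set 1416191_at. That is 1.60-fold lower in BER than in control and 1.35-fold lower in BER+DNP than in DNP, with both berberine arrays below both others. Ssr1, the alpha subunit of the translocon-associated protein complex (TRAP), read 4.92, 4.40, 4.87 and 4.45, so the arrays fell into a high pair without and a low pair with berberine. Ssr2, the beta subunit of TRAP, read 5.77, 5.15, 5.75 and 5.51 on its only probe set and was 1.53-fold lower in BER than in control. Sec61b, a small channel subunit, gave -0.34 and -0.22 on its own probe set. The shared probe sets, which were not counted, gave -0.29 and 0.12 for Sec61b and -0.18 and -0.24 for Sec61g. Sec63, which brings BiP to the channel, gave -0.26 and -0.26, and its partner Sec62 -0.22 and -0.10. The other 2 Sec62 probe sets past the filter were above 0 in both pairs, at 0.30 and 0.02, and 0.05 and 0.06. Ssr3, the gamma subunit of TRAP, gave -0.09 and -0.28, and Sec11c, a catalytic signal peptidase subunit, -0.15 and -0.09. Ssr4, the delta subunit, was the exception: it read 5.68, 5.88, 5.48 and 5.65, higher with berberine by 0.20 and 0.17, and a second probe set gave 0.21 and 0.21. With anti-DNP IgE the 9 genes had medians of 0.09 and 0.16.

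**Figure D3:**
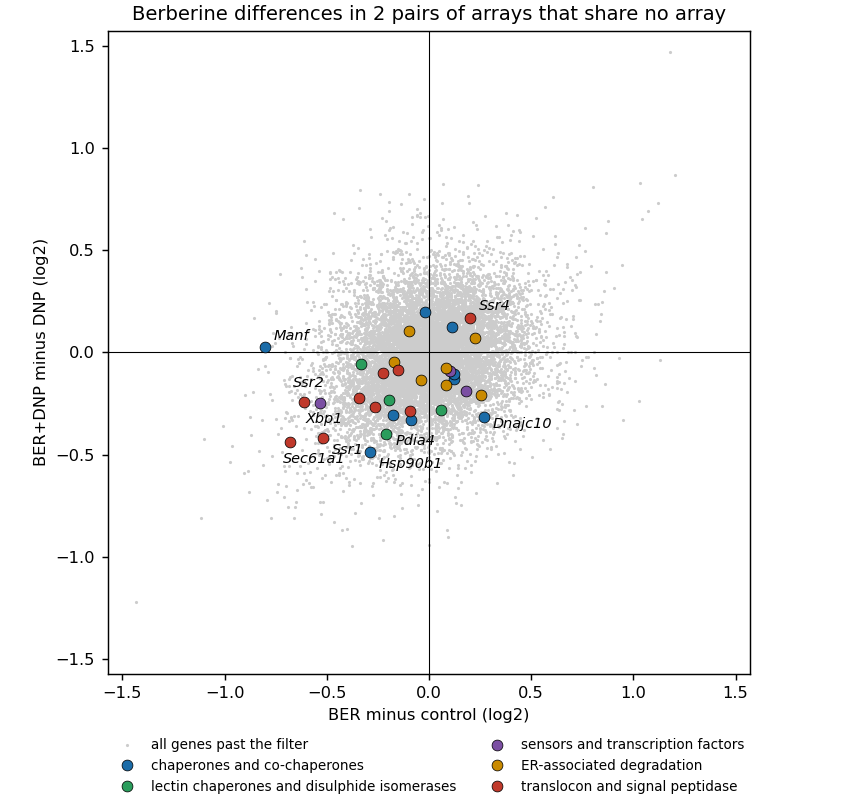
Each point is a gene, with its log2 difference in BER against control on the horizontal axis and in BER+DNP against DNP on the vertical axis; grey points are all 12585 genes and coloured points the 32 members by subgroup. Of the 9 translocon genes, 8 lie in the lower left part and Ssr4 alone in the upper right, while Manf lies far left at a vertical value of 0.02.

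Across the 32 members the differences of the berberine pairs correlated at r = 0.34, and across all 12585 genes at r = 0.23. These are descriptions across genes of the same 4 arrays, which are not independent replicates. Control probe sets for beta-actin showed a like pattern. The 5' one read 9.42 in control and 8.85 in BER, and 9.62 in DNP and 9.04 in BER+DNP, with berberine differences of -0.57 and -0.59, and the 3' one gave -0.31 and -0.22. For Gapdh the control probe sets differed little: the 5' one gave 0.05 and -0.08, the 3' one -0.03 and 0.02. The 24 probe sets for poly-A spike-ins had median differences of -0.48 and -0.14, namely -0.43 and -0.06 for 12 of them and -0.49 and -0.18 for the 12 of the r2 design. The median member difference was -0.10 and -0.17 in the same pairs. The part of RNA quality or of sample preparation in the member differences was not tested.

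Further probe sets bear on how firm these readings are. Of 61 member probe sets past the filter, 29 read lower with berberine in both pairs (47.5%), where 28.9% of all such probe sets did, and 11 read higher in both. Among translocon probe sets 14 of 21 were lower in both and 4 higher. Yet the 1.5-fold reading of Sec61a1 in BER came from 1 of its 6 probe sets. The other 5 gave -0.04, -0.18, 0.04, -0.06 and 0.03 in BER against control. In BER+DNP against DNP all 6 were below 0, at -0.44, -0.15, -0.24, -0.26, -0.51 and -0.13. The other Ssr1 probe sets past the filter gave -0.26 and 0.00, and 0.14 and -0.54. Over the 16 members with 2 or more probe sets past the filter, all probe sets of a gene had the same sign in 7 genes for the berberine pair without antibody and in 6 for the pair with it.

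**Figure D4:**
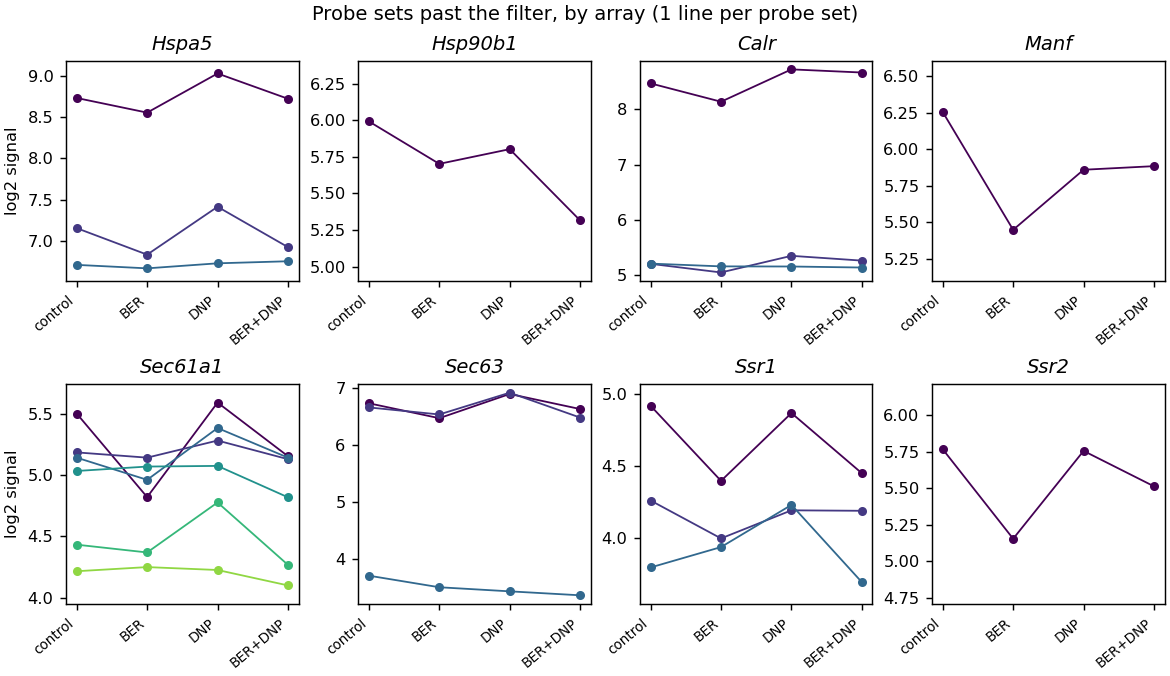
Log2 signal on the 4 arrays for every probe set past the filter of 8 member genes, 1 line per probe set, with a separate vertical scale in each panel. One Sec61a1 line dips in BER, from 5.50 in control to 4.82, while the other 5 move little there, and the brighter Hspa5 lines share a peak in DNP.

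Members with an ERSE or ERSE-II were set beside those without. Of the 11 with such an element, 8 were past the filter, among them Dnajb11 with its match after the start site. Past the filter were also 17 members with a promoter window but no such element. In DNP against control the medians were 0.23 with the element, 6 of 8 above 0, and 0.06 without it, 9 of 17 above 0. Over all genes the median in that pair was 0.02, and 53.3% were above 0. In BER+DNP against DNP, which shares the DNP array, they were -0.25 and -0.14. In BER against control they were -0.01 and -0.10, and in BER+DNP against BER -0.01 and -0.01. On these arrays the median of the ERSE genes was above that of the other members with anti-DNP IgE alone and level with it in the antibody pair that holds berberine. The difference between these sets has no test.

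Other genes of the same compartment were taken from 8 lists, with up to 4 genes named per list by their mean absolute berberine difference. Genes that attach and trim N-glycans, work that begins at the channel, gave medians of -0.13 and -0.24 for berberine, and 8 of 13 past the filter were lower in both pairs against 29.7% of all genes. Ostc (-0.50 and -0.38), Stt3a (-0.53 and -0.35), Tusc3 (-0.32 and -0.35) and Rpn1 (-0.25 and -0.22), all of the oligosaccharyltransferase, led that list. Signal recognition and signal peptidase genes had medians of -0.15 and -0.11, with 5 of 12 lower in both. Among them Spcs1, a signal peptidase subunit, gave -0.22 and -0.60, Spcs2 -0.26 and -0.44, Spcs3, also a subunit, -0.23 and 0.40, and Tram2, a relative of the translocating chain protein, 0.12 and -0.24. In ER to Golgi transport genes 7 of 14 were lower in both, with medians of -0.06 and -0.05. Sec13, a COPII coat subunit, gave -0.45 and -0.60, the KDEL receptor gene Kdelr2 -0.51 and -0.02, and the COPII genes Sec23b and Sec24b -0.14 and -0.37, and 0.10 and 0.38.

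The PERK branch, the arm that slows translation and makes ATF4, differed in direction. Its medians were -0.02 without and 0.23 with anti-DNP IgE for berberine, with 6 of 8 genes above 0 in the second pair against 45.4% of all genes. Eif2ak3, which encodes PERK, read 5.19, 5.10, 4.94 and 5.38 in control, BER, DNP and BER+DNP, and Ddit3, which encodes CHOP, 5.38, 5.38, 5.29 and 5.79. Both were highest with both agents and lowest on DNP, the array on which 16 members were highest. Ppp1r15b, a regulator of eIF2 alpha dephosphorylation, gave 0.15 and 0.32 for berberine, and the adaptor gene Nck1 -0.22 and -0.20. No gene of this list passed 1.5-fold in any pair.

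In the 4 remaining lists the berberine differences were of both signs without anti-DNP IgE. Oxidative folding and prolyl isomerase genes had medians of -0.02 and -0.05, led by the peroxiredoxin gene Prdx4 (-0.33 and -0.46), the oxidase gene Ero1b (-0.57 and 0.11), Txndc11 (0.55 and 0.08) and Pdia5 (-0.23 and -0.25). Other Hsp70 and Hsp90 cofactors had medians of 0.11 and -0.16, with 3 of 5 above 0 in the first pair and 4 of 5 below 0 and none above in the second: Cnpy2 at -0.17 and -0.21, Cnpy3 at 0.13 and -0.16, Sdf2 at 0.11 and -0.17 and the BiP exchange factor gene Sil1 at 0.12 and -0.06. Other ER-associated degradation genes had medians of 0.04 and 0.00; the ubiquitin-conjugating genes Ube2j1 and Ube2g2 gave -0.15 and -0.47, and 0.29 and -0.22, the lectin gene Os9 0.20 and 0.38, and Aup1 -0.30 and -0.20. Membrane-bound factors of the ATF6 type and their proteases had medians of 0.15 and -0.03. Creb3l3 gave 0.20 and 0.12, Creb3l1 0.19 and 0.11, Creb3l2 0.20 and -0.07 and Creb3 -0.04 and -0.17.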

How the data were processed

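The authors deposited a table of log2 signals for 45101 probe sets on 4 arrays, made with Affymetrix Expression Console per the submitters' processing notes; for its version and its summary algorithm, no statement was found (not given in the sources used here). The log2 scale was read from the values. The table was used as deposited. The 64 control probe sets were set apart. Symbols came from a platform annotation, under which 34945 probe sets have 1 symbol, 932 have several (not used to name genes) and 9160 have none. The 101 member probe sets carried gene identifiers of the same symbol in RefSeq GRCm38.p6. Any floor in the unstated algorithm can shrink differences of dim genes.

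Differences are of log2 signals between 2 arrays: BER minus control, BER+DNP minus DNP, DNP minus control and BER+DNP minus BER. A gene was counted past 1.5-fold. With 1 array a group no test was run. Only the 1.5-fold count in both berberine pairs was tested on simulated data. The counts by sign or by array, the medians and the promoter search were not. The members, subgroups and lists were chosen with earlier results of these data known. All members are named, and up to 4 genes of each other list by mean absolute berberine difference. Promoters were to be shown for members past 1.5-fold in any pair and for Hspa5, Hsp90b1 and Sdf2l1; the ERSE copies were added after the values were seen. The limit for a value that moved (over 0.1 log2) and the rule for a gene given a closer look were also set after values had been seen. Alternatives were quantile normalization, no filter, a filter at the 75th percentile, the median of all probe sets, leaving out the suffixes s_at and x_at, 32 added to the linear signals, and thresholds of 0.32 (log2) and 2-fold. Python 3.11.15, pandas 2.3.3 and NumPy 2.4.6 were used.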

Additional observations from a re-analysis of the deposited data

Results flagged for a closer look

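The berberine difference of Manf had opposite signs in the pairs of arrays without and with anti-DNP IgE, -0.80 and 0.02, a gap of 0.83 on the log2 scale. Of all 12585 genes, 4.27% had a gap of at least 1.5-fold in either direction. Manf was read by a single probe set, each reading comes from 1 array, and the difference between the pairs was not tested.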

How the results depend on the processing

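The count of translocon genes lower in both berberine pairs was 8 of 9 with quantile normalization, with no filter, without the suffixes s_at and x_at and with 32 added to the linear signals, 6 of 7 when only genes from the 75th percentile of signal up were kept, and 6 of 8 with the median of all probe sets. In BER against control, 0 members were 1.5-fold lower with 32 added, which shrinks differences of dim probe sets by construction. At a lower threshold, 0.32 on the log2 scale, 7 were lower and, in both berberine pairs together, 2 passed; at 2-fold 0 were lower. Also at that lower threshold, 5 were lower in BER+DNP against DNP, 4 higher and 3 lower in DNP against control, and 5 higher and 2 lower in BER+DNP against BER. The share of all genes past that lower threshold is not given here, so its counts are not read as a result about the members.

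Subgroup medians that moved by over 0.1 were the following, and the cause was not tested unless stated. With the median of all probe sets, BER against control gave -0.050 for lectin chaperones and isomerases, -0.067 for sensors, -0.042 for ER-associated degradation and -0.13 for the translocon. BER+DNP against DNP gave -0.067 for lectin chaperones and isomerases and -0.34 for sensors. DNP against control gave 0.069 for chaperones, 0.17 for lectin chaperones and isomerases and 0.14 for sensors, and BER+DNP against BER 0.0051 for the translocon. The same setting put 2 members highest and 8 lowest on BER, of the 26 then past the filter. Chaperones in DNP against control had 0.069 with no filter, -0.041 without the suffixes s_at and x_at and 0.052 with 32 added. Translocon genes had -0.16 and -0.11 in the berberine pairs with 32 added, and ER-associated degradation -0.069 in BER+DNP against BER. With no filter, ER-associated degradation had -0.041 in BER against control, 6 members were lowest on DNP and 4 highest on BER+DNP. From the 75th percentile up, chaperones had -0.31 in BER+DNP against DNP and 5 members were lowest on BER+DNP. Quantile normalization gave -0.14 for lectin chaperones and isomerases in BER+DNP against DNP. The 5 single gene differences that moved by over 0.1 with it, of Hspa5, Calr and Pdia3, stand beside those genes above. No paired analysis was possible because each group holds 1 array, so the groups share fewer than 2 replicate numbers; the pairs without and with the other agent are given side by side, and an additive model over the 4 arrays was not run.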
